A study of Mus musculus with 12 samples.

Results

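Fgf21 and 4 other genes that cells switch on under stress, Gdf15, Stc1, Stc2 and Nupr1, were followed in the growth plate hypertrophic zone of the mouse tibia. They were taken by name: every non-control probe annotated to one of the 5 genes was used, which gave 7 of the 41174 probes and 5 of the 27962 gene names on the array. Fgf21 was chosen by its measured signals, a strong rise in Schmid and a small one in Cog, so its values in the mutants are given as a description, without a test. The arrays covered 4 groups of 3 mice, all 14 days old, with 1 tibia and 1 single-colour Agilent array per mouse. Schmid mice carried Col10a1 p.Asn617Lys, a misfolding form of collagen X, and were homozygous according to the study. Cog mice carried ColXTgcog, a transgene that makes a misfolding thyroglobulin in the hypertrophic zone, and the study did not separate mice with 1 transgenic chromosome from homozygous mice, so the Cog group may hold both. Wildtype mice of the Schmid background and wildtype mice of the Cog background served as controls for their own mutant, and no group carried both alleles. All groups shared microdissection with a scalpel and linear amplification of the RNA before labelling with Cy3, so a signal is that of amplified RNA from a dissected zone.

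When misfolded protein builds up in the endoplasmic reticulum (ER), the sensor kinase PERK slows translation and raises the transcription factors ATF4 and CHOP, and ATF6 and IRE1 act beside it. Some of the genes switched on in this way encode hormones and other factors that leave the cell. Fgf21 is a circulating member of the fibroblast growth factor family, best known as a hormone that the fasting liver releases, and target cells sense it through an FGF receptor paired with β-klotho. Gdf15 is a TGF-β family member that reaches receptors in the brainstem and lowers food intake, and its blood level rises in many forms of cell damage. The stanniocalcins Stc1 and Stc2 are secreted glycoproteins, of which Stc2 restrains the release of insulin-like growth factor from its binding proteins. Nupr1 is not secreted: it is a small nuclear protein that is switched on by many stresses and takes part in transcription.

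Fgf21 is read by 2 probes, both annotated to the same transcript. The intron-spanning probe matches 60 bases whose ends lie 615 bases apart at chr7:41790404-41791018 of the mouse build mm7, on the minus strand, and its sequence is shown because genomic DNA does not hold it as an unbroken run.
Fgf21 intron-spanning probe: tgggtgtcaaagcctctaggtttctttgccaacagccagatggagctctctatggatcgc
The 3′ probe matches an unbroken stretch nearer the 3′ end of the same gene, at chr7:41790029-41790088 (mm7, minus strand), and 80.0% of its bases are A or T. Signals are log2 values after background correction and quantile normalization over the 12 arrays, and they compare mice within a probe, not probes with each other. The scanner software also marks whether a spot lies well above its background.

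Fgf21 was the highest in Schmid with both probes. On the intron-spanning probe the Schmid mice had log2 signals of 16.17, 16.05 and 15.78, with a mean of 16.00 ± 0.20 (SD, n = 3). Their wildtype mice had 9.60, 9.92 and 10.19, with a mean of 9.90 ± 0.30 (SD, n = 3). The lowest Schmid mouse stood 5.59 above the highest of these wildtype mice, and the means differed by 68.5-fold. Cog mice had 10.36, 11 and 10.58 on this probe, with a mean of 10.65 ± 0.33 (SD, n = 3). Wildtype mice of the Cog background had 10.96, 9.97 and 10.19, with a mean of 10.37 ± 0.52 (SD, n = 3). The Cog mice overlapped their wildtype, and the ratio of the means was 1.21. All 12 spots of this probe were well above background. The order of the means was Schmid, Cog, wildtype of the Cog background and wildtype of the Schmid background, and below Schmid each step between neighbours was smaller than the larger SD of the pair.

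The 3′ probe placed Schmid apart in the same way and separated Cog from its wildtype as well. Schmid mice had log2 signals of 17.69, 17.56 and 17.45 on it. Their wildtype mice had 8.66, 8.66 and 8.37, of which none was well above background, so the difference is a bound: Fgf21 was at least 268-fold higher in Schmid. Cog mice had 10.01, 10.74 and 11.21, and all 3 spots were well above background. Wildtype mice of the Cog background had 9.24, 8.59 and 8.67, again with none well above background, and the Cog mean was at least 2.52-fold higher. A bound sets the mutant mean against the lowest signal that the scanner called well above background on each wildtype array, or the probe's own signal where that was higher. The 2 probes therefore gave Cog different pictures, with overlapping mice on the intron-spanning probe and a gap of 0.77 on the log2 scale between the groups on the 3′ probe.

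Set side by side, Fgf21 changed by 6.10 in Schmid and by 0.28 in Cog on the log2 scale with the intron-spanning probe, 5.82 apart. The comparison between the wildtype groups was not used to choose Fgf21 and could be tested. There the intron-spanning probe differed by -0.47 on the log2 scale, Schmid background against Cog background, with an adjusted p of 0.478 (limma with Benjamini-Hochberg adjustment over all probes).

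**Figure D1:**
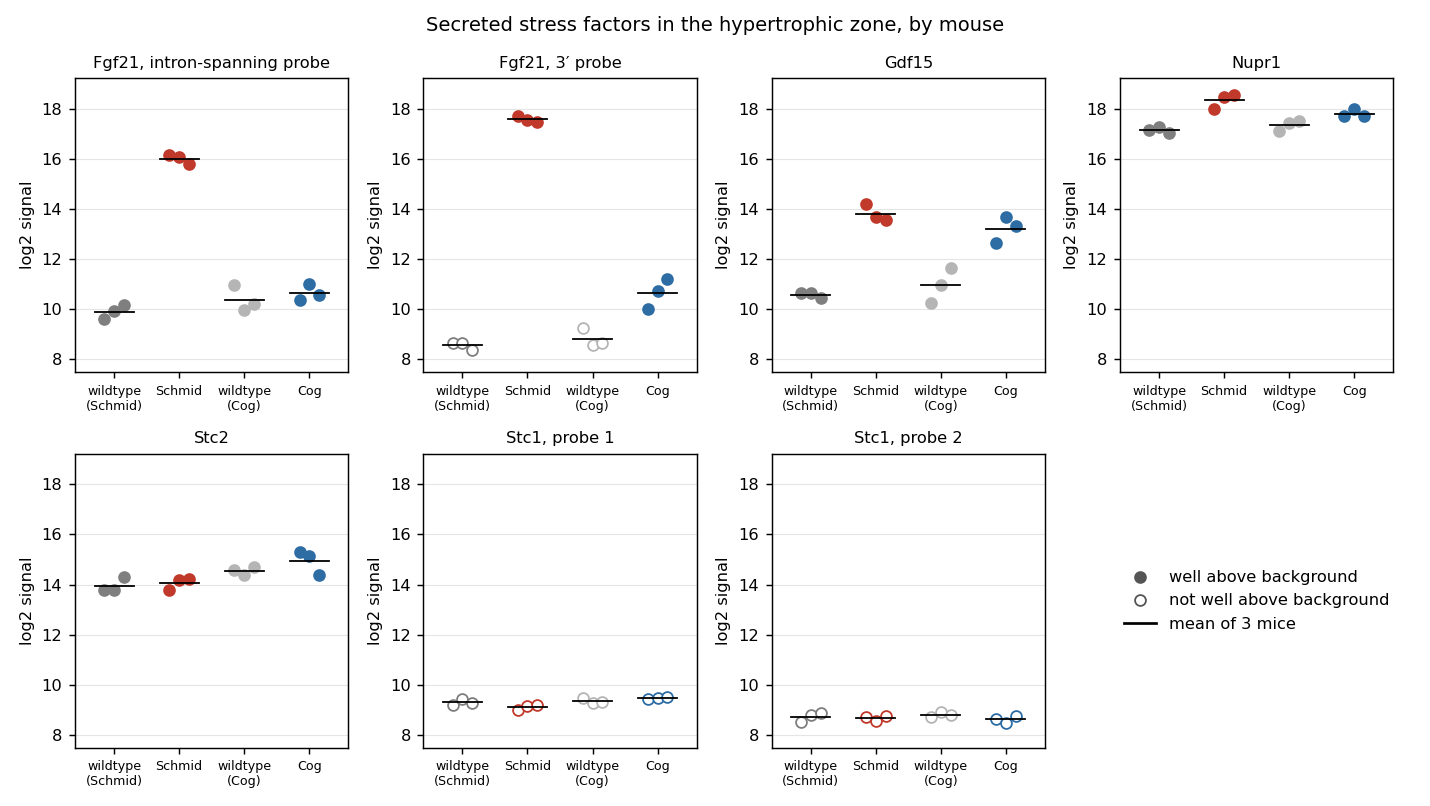
Log2 signal (vertical axis) of the 7 probes of Fgf21, Gdf15, Nupr1, Stc2 and Stc1 in each mouse, by group, with a bar at the mean of 3 mice and open circles where the spot was not well above background. Fgf21 stood near 16.00 in Schmid on the intron-spanning probe against 9.90 in its wildtype, Gdf15 was raised in both mutants, and all 24 spots of Stc1 were at background.

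Gdf15, the other circulating hormone of the group, rose in both mutants. Its probe lies at chr8:69084712-69084771 (mm7, minus strand). Schmid mice had log2 signals of 14.18, 13.68 and 13.55, and their wildtype mice had 10.64, 10.64 and 10.46. Cog mice had 12.65, 13.66 and 13.30, and wildtype mice of the Cog background had 10.25, 10.97 and 11.64. No mutant mouse overlapped its wildtype, with gaps of 2.91 in Schmid and 1.02 in Cog. The rise was 9.33-fold in Schmid (95% interval 5.5 to 15.8) with an adjusted p of 0.000308 in limma. It was 4.78-fold in Cog (95% interval 2.81 to 8.10) with an adjusted p of 0.00852. The rise in Schmid was larger by 0.97 on the log2 scale, but the 95% interval of that difference ran from -0.11 to 2.05 and its adjusted p was 0.197. A fit on the 6 Cog and Cog background arrays alone gave the same Cog change an adjusted p of 0.0627, which ends the call.

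Nupr1, the nuclear stress protein, was bright in every mouse and rose further in Schmid. Its probe lies at chr7:122720022-122720081 (mm7, minus strand). Schmid mice had log2 signals of 17.99, 18.48 and 18.53, against 17.14, 17.26 and 17.01 in their wildtype. Cog mice had 17.69, 18.00 and 17.71, against 17.10, 17.42 and 17.50 in theirs. Each mutant lay above its wildtype without overlap, by 0.73 in Schmid and by 0.18 in Cog. The rise in Schmid was 2.29-fold (95% interval 1.76 to 2.99; limma adjusted p of 0.00125). In Cog the ratio was 1.37 (95% interval 1.05 to 1.79), which did not pass the test (adjusted p of 0.163). The change in Schmid exceeded that in Cog by 0.74 on the log2 scale (95% interval 0.20 to 1.28), with an adjusted p of 0.0641. With the scanner's processed signal scaled to the 75th percentile of each array, the Schmid change was 0.79 with an adjusted p of 0.146. In that scaling the median of all probes moved by -0.40, and Nupr1 stood 1.19 above it.

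Stc2 did not pass the test in either mutant. Its probe lies at chr11:31312142-31312201 (mm7, minus strand). Schmid mice had log2 signals of 13.78, 14.17 and 14.21, against 13.78, 13.78 and 14.32 in their wildtype, and the groups overlapped. Cog mice had 15.29, 15.14 and 14.37, against 14.59, 14.37 and 14.71, and 2 of the 3 Cog mice lay above all of their wildtype. The ratio to wildtype was 1.07 in Schmid (95% interval 0.727 to 1.56; adjusted p of 0.814). It was 1.30 in Cog (95% interval 0.886 to 1.90; adjusted p of 0.422). The widest separation of Stc2 was between the wildtype groups, where the Schmid background was lower by a log2 difference of -0.60, without overlap, and with an adjusted p of 0.310.

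Stc1, the other stanniocalcin, was not measured in any group. Its probes lie at chr14:63900433-63900492 and chr14:63891186-63891833 (mm7, plus strand), the latter being 60 bases spread over 648. None of the 24 spots was well above background, with log2 signals from 9.02 to 9.54 on one probe and from 8.48 to 8.91 on the other. These values give neither a fold nor a level.

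Counted over the genes, 2 of the 4 members other than Fgf21 rose in Schmid, Gdf15 and Nupr1, where a call requires both a 2-fold change and an adjusted p no larger than 0.05. Of all probes 10.5% were called in Schmid, 5.78% as higher and 4.69% as lower. In Cog 1 of the 4 rose, Gdf15, where 2.31% of all probes were called, 1.56% as higher and 0.748% as lower. Many probes are dim. In a fit on probes well above background on all arrays of at least 1 group, 17.9% were called in Schmid and 4.26% in Cog. Stc1, among the 4, was at background throughout. Gdf15 and Nupr1 lay above wildtype without overlap in both mutants, which 19.3% of all probes did in Schmid and 16.4% in Cog. Fgf21 is left out of these counts. None of the 4 was called for the difference between Schmid and Cog in limma, where 10.3% of all probes were (4.38% as higher, 5.88% as lower), and 1 of them, Nupr1, had an unadjusted p under 0.05 (0.0123). Between the wildtype groups 0.469% of all probes were called and no member was, with an unadjusted p under 0.05 for Stc2 (0.0363) among the 4. Stc2 lay lower in the Schmid background without overlap there, as did 8.64% of all probes. The p-values rest on a spread between mice that is estimated jointly over all groups of 3. In a dissected zone fewer cells of a type and less RNA per cell cannot be told apart.

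**Figure D2:**
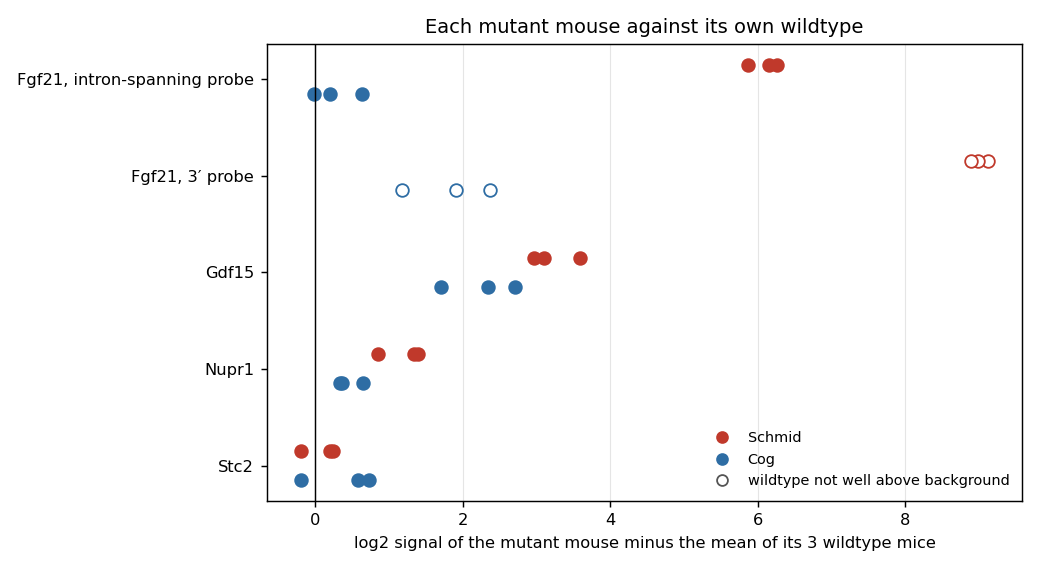
Log2 signal of each mutant mouse minus the mean of the 3 wildtype mice of its background (horizontal axis) for Fgf21, Gdf15, Nupr1 and Stc2. Open circles mark values for which no wildtype mouse was well above background. They use the wildtype signal as it stands, and their means exceed the bounds given in the text. The Cog mice straddle 0 for Fgf21 on the intron-spanning probe and for Stc2, and the Schmid mice lie above the Cog mice for Fgf21, Gdf15 and Nupr1.

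Neither endocrine relative of Fgf21 rose. Of the endocrine FGFs, Fgf23, the phosphate hormone of bone, had log2 signals of 9.44, 9.44 and 9.58 in Schmid and of 10.39, 10.81 and 10.56 in its wildtype. It was lower in Schmid without overlap, which 26.1% of all probes were, with a fold change of -2.15 (negative values mean lower in the mutant; limma adjusted p of 0.000389) on its brighter probe, and its other probe gave -1.86, short of the fold needed for a call. Without replicate 2 of the wildtype the brighter probe gave -1.99, which also fell short. The Schmid signals of the brighter probe were dim, below the median of 9.71 over all probes on those arrays. In Cog Fgf23 had a fold change of 1.25 (adjusted p of 0.175), and the difference between the mutants was -1.42 on the log2 scale (adjusted p of 0.00106). Fgf15, a bile acid hormone of the gut, was called in neither mutant, and in Cog neither group was well above background on any array.

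Of the 7 measured receptors and co-receptors of Fgf21 and Gdf15, 2 fell in Schmid (Fgfr1 and Fgfr4), none rose there and none was called in Cog. Their median log2 change was -0.29 in Schmid and 0.03 in Cog, against -0.06 and -0.00 over all probes. Over all probes 4.69% were called lower in Schmid. Fgfr4, the FGF receptor best known from liver, had log2 signals of 10.54, 10.46 and 10.56 in Schmid and of 12.07, 12.83 and 12.71 in its wildtype. Its fold change was -4.05 in Schmid (limma adjusted p of 0.000168) and 1.26 in Cog (adjusted p of 0.334). The other 2 Fgfr4 probes gave -2.35 and -1.40 in Schmid, and the last was not called. The change differed between the mutants by -2.36 on the log2 scale (adjusted p of 0.000776), and all 3 Fgfr4 probes were called for that difference. Fgfr1, the main receptor of Fgf21 in fat, fell in Schmid with a fold change of -2.11 (adjusted p of 0.00298) on its brightest probe, while its other 3 probes were not called. Without replicate 2 of the wildtype that fold change was -1.84, which ended the call. On that probe the Schmid signals were dim, at 9.56, 9.57 and 9.54, below the median of 9.71 over all probes. Fgfr2 had a Schmid to wildtype ratio of 2.04 that did not pass the test (adjusted p of 0.104), and Fgfr3, which restrains growth plate cartilage, had -1.54 (adjusted p of 0.303). The Fgfr2 ratio leans on background values. Wildtype replicates 2 and 3 had 8.58 and 8.68, below the lowest signals called well above background on their arrays (9.74 and 9.39).

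Klb, which encodes the β-klotho that Fgf21 needs, was dim throughout. On its brighter probe Schmid mice had log2 signals of 9.80, 9.82 and 9.85 against 9.38, 9.5 and 9.23 in their wildtype, where none was well above background. Klb was at least 1.25-fold higher in Schmid there, and at least 1.09-fold lower in Cog, where no Cog spot was well above background, and neither reached a call. The difference between the mutants was called on this probe, and 20 of 22 alternatives kept that call, with log2 values from 0.68 to 3.57. That difference rests on Schmid wildtype and Cog spots that were not well above background. The other Klb probe was at background in both comparisons. Kl, the co-receptor of Fgf23, was at background too, and Ret, which signals for Gdf15, stood at a fold change of -1.22 for Schmid (adjusted p of 0.0699). Gfral, the receptor of Gdf15, was not found by name among the probes.

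In the PERK, ATF4 and CHOP arm, 10 of the 14 measured genes rose in Schmid and 5 in Cog, and none fell. Its median log2 change was 1.58 in Schmid and 1.01 in Cog, against the same -0.06 and -0.00 over all probes. Of all probes 5.78% were called higher in Schmid and 1.56% in Cog. Ddit3, which encodes CHOP, had log2 signals of 16.24, 16.31 and 16.12 in Schmid and of 11.44, 12.03 and 11.72 in its wildtype. Cog mice had 15.46, 15.88 and 15.51 for Ddit3, and their wildtype had 11.44, 12.09 and 12.36. Ddit3 rose 22.5-fold in Schmid (limma adjusted p of 8.75e-06) and 12.6-fold in Cog (adjusted p of 8.54e-05). Every mutant mouse lay above all mice of its wildtype. Trib3, a pseudokinase that restrains this arm, rose 7.83-fold and 5.6-fold, and Atf3, a stress transcription factor, 7.82-fold and 4.34-fold. Chac1, which degrades glutathione, rose 5.08-fold and 3.81-fold, and the transcription factor Cebpb 3.0-fold and 2.89-fold. The Cog call of Chac1 was lost without replicate 1 or 3 of Cog and without replicate 1 or 2 of its wildtype, with adjusted p values up to 0.0774.

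Other genes of the arm were called in Schmid alone. Ero1l, an ER oxidase, rose 8.14-fold in Schmid and had a ratio of 1.48 in Cog (adjusted p of 0.218). Its change differed between the mutants by 2.46 on the log2 scale (adjusted p of 0.00172), and both probes showed this. Cebpg rose 2.96-fold in Schmid on its brightest probe and differed between the mutants by 1.84 (adjusted p of 0.0321), but its other 2 probes were not called. That difference lost its call in 9 of the 12 fits that each left out 1 mouse, with adjusted p values up to 0.0767. Eif2ak3, which encodes PERK, Vldlr and Asns, the asparagine synthetase, rose 5.67-fold, 2.58-fold and 2.11-fold in Schmid. The Eif2ak3 value rested on uneven wildtype mice: it was 3.25-fold without replicate 2 of the wildtype (adjusted p of 0.0513) and 9.02-fold without replicate 1, and the call was also lost without any 1 of the Schmid mice. The call of Asns was lost without replicate 2 or 3 of Schmid or replicate 1 of the wildtype, with adjusted p values up to 0.0575 and a fold change down to 1.73. Their differences between the mutants did not pass the test, with adjusted p values of 0.357, 0.108 and 0.673. The messenger RNA of Atf4 itself had fold changes of -1.14 and -1.11 and passed no test. The dimmer probes of Trib3, Cebpb and Vldlr were called in neither mutant.

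Among 10 other regulators of these genes, Atf6 and Xbp1, transcription factors of the other ER stress arms, rose in Schmid, and Egr1 fell. Of all probes 5.78% were called higher and 4.69% lower in Schmid. Atf6 rose 2.99-fold in Schmid and 5.53-fold in Cog, although its dimmer probe was called only in Schmid. Xbp1 rose 2.93-fold in Schmid and had a ratio of 1.82 in Cog (adjusted p of 0.248), and Egr1 fell in both mutants, with fold changes of -3.13 and -2.37, the latter called under 10 of 23 alternatives and lost in 9 of the 12 fits without 1 mouse, with adjusted p values up to 0.0986. The Schmid call of Xbp1 was lost without replicate 1 of Schmid and without replicate 2 or 3 of its wildtype (adjusted p values up to 0.0775). Ppara, the fasting regulator of Fgf21 in liver, was not called in either mutant, and in Schmid neither it nor its wildtype was well above background. Mlxipl and Ppargc1a, which also act on Fgf21 in metabolic tissue, had ratios of 1.09 and 1.09 in Schmid.

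**Figure D3:**
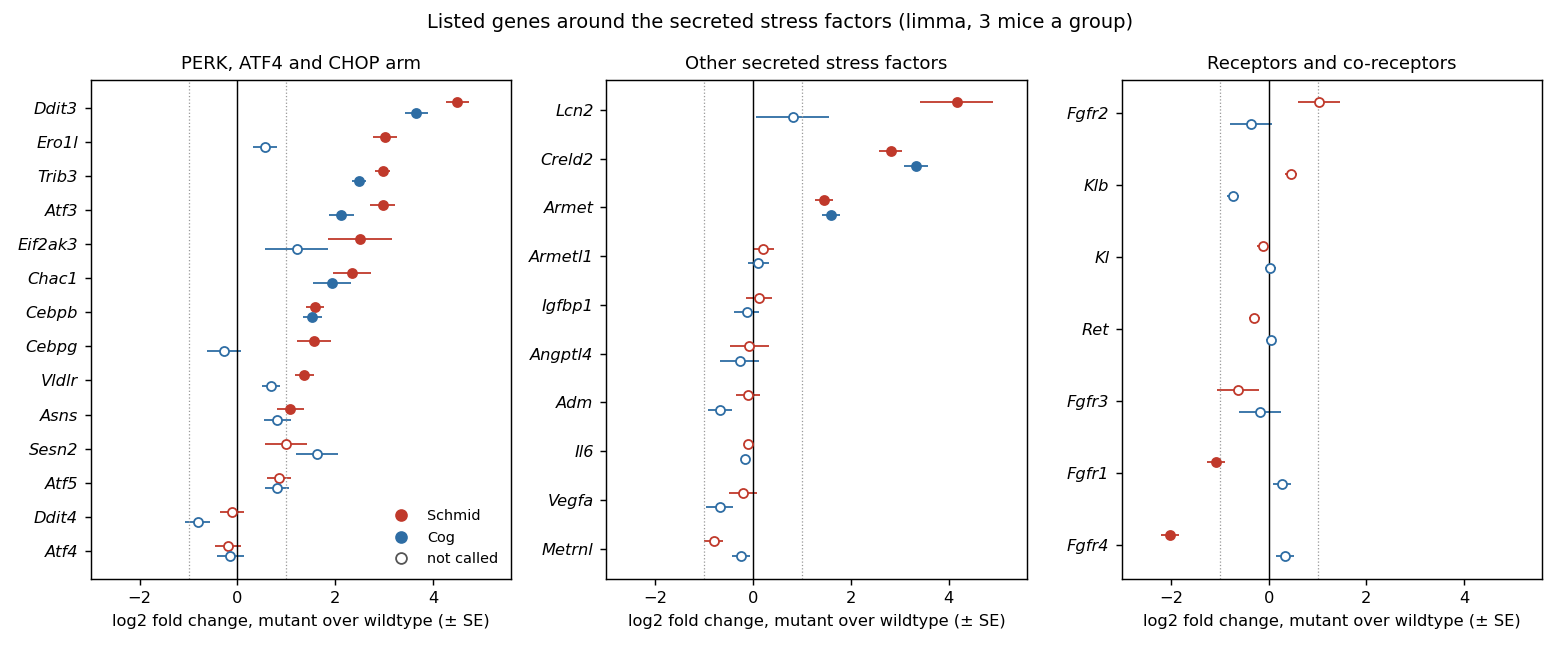
Log2 fold change over wildtype (horizontal axis, ± SE from limma, 3 mice in each group) of the PERK, ATF4 and CHOP arm, other secreted stress factors and receptors in Schmid and Cog, with filled circles for called genes and dotted lines at 2-fold. Ddit3, Trib3, Atf3, Chac1 and Cebpb were called in both mutants, while Ero1l, at 8.14-fold in Schmid and 1.48 in Cog, and Fgfr4 lay apart.

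Of 10 other secreted factors linked to stress, 3 rose in Schmid and 2 in Cog, with median log2 changes of 0.02 and -0.14. Over all probes 5.78% were called higher in Schmid and 1.56% in Cog. Creld2, a secreted chaperone-like protein, rose 7.02-fold in Schmid and 10.1-fold in Cog, and Armet (now Manf), a secreted survival factor, 2.73-fold and 3.02-fold. Their differences between the mutants did not pass the test (adjusted p values of 0.325 and 0.733). Lcn2, a secreted iron carrier that is also a granule protein of neutrophils, was uneven in wildtype. Schmid mice had log2 signals of 14.89, 14.61 and 14.08 for Lcn2, against 12, 10.67 and 8.41 in their wildtype. The 8.41 of wildtype replicate 3 lay below 9.39, the lowest signal called well above background on that array. Folds that include this mouse therefore lean on a background value. Cog mice had 9.40, 10.34 and 8.62, and their wildtype had 8.74, 8.65 and 8.53. Lcn2 rose 17.9-fold in Schmid (adjusted p of 0.00358), but the size rested on single wildtype mice, being 31.7-fold without replicate 1 and 9.13-fold without replicate 3. Both fits kept the call, and its difference between the mutants had an adjusted p of 0.0540. The log2 of the summed signals of the 5 neutrophil markers was 12 to 13.6 in Schmid and 12.2 to 16.8 in its wildtype. Such a sum follows the brightest markers most. The part of these cells in the Lcn2 values was not tested. The remaining 7 genes of the list, among them Vegfa, Adm, Angptl4, Il6 and Igfbp1, were called in neither mutant, and Il6 and Igfbp1 were at background in all 4 groups.

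The start-site regions of Fgf21 and Nupr1 hold the same short element. RefSeq regions (GRCm38.p6) from 250 bases before to 50 bases after the transcription start were found for 4 of the 5 members, Stc1 being the one without, and Gdf15 has 2 start sites. They were searched on both strands for TGATGNAA, the core of the element bound by heterodimers of C/EBP and ATF factors such as ATF4. They were also searched for the ER stress response elements I and II, for TGACGTGG, the unfolded protein response element, and for TGACGTCA, the cyclic AMP response element. The last 2 patterns share TGACGT and can overlap. The regions of Fgf21 and Nupr1 are printed because they carry the match, in capitals, as read on the strand of the gene.
Fgf21, chr7:45615441-45615740, minus strand: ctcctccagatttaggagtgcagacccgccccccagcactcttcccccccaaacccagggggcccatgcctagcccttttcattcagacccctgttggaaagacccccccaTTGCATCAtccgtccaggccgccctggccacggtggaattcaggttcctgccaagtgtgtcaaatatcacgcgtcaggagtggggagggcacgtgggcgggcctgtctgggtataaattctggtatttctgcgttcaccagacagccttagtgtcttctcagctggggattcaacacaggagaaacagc
Nupr1, chr7:126625421-126625720, minus strand: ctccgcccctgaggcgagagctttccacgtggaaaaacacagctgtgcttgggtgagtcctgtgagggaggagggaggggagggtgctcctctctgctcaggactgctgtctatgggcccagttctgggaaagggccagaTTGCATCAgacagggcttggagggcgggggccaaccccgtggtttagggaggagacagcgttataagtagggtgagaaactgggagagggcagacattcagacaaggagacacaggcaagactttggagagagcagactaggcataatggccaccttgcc
Relative to the start, the match lies at positions -139 to -132 in Fgf21 and at positions -110 to -103 in Nupr1. Neither Gdf15 region nor the Stc2 region matched any of the 5 patterns, and the other 4 patterns matched no member. Only exact matches were counted. The study reported a putative ER stress response element I upstream of the Fgf21 start codon, close to the consensus, and a near match of that kind is not counted here. The core TGATGNAA was present in 3.97% of the 32851 start-site regions of all genes, and in 4.51% of genes. The ER stress response elements I and II were present in 0.119% and 0.0365% of all regions, TGACGTGG in 0.676% and TGACGTCA in 1.79%.

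The same core was found in 5 of the 14 genes of the PERK, ATF4 and CHOP arm, namely Asns, Atf3, Chac1, Trib3 and Vldlr, all 5 of which rose in Schmid. Among the other lists it was found in none of the 5 receptor genes with a region and none of the 8 other regulators. It was also found in 1 of the 8 other secreted factors with a region, Armetl1, which was called in neither mutant. Genes of this arm were listed as known targets of the pathway, so the count describes the list and is no independent evidence. The matches of Fgf21, Nupr1 and these genes are set under each other with 10 bases on either side, each read in the direction in which the core runs TGATGNAA.
Fgf21, chr7:45615612-45615639, plus strand: cctggacggaTGATGCAAtgggggggtc
Nupr1, chr7:126625563-126625590, plus strand: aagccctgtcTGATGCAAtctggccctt
Asns, chr6:7693215-7693242, minus strand: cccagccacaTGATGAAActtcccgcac
Atf3, chr1:191183426-191183453, plus strand: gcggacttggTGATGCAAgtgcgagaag
Chac1, chr2:119351039-119351066, minus strand: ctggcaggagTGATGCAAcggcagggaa
Trib3, chr2:152344029-152344056, plus strand: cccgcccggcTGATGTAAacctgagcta
Vldlr, chr19:27216810-27216837, minus strand: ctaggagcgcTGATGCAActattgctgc
The capitals mark the core. Fgf21, Nupr1, Atf3, Chac1 and Vldlr share TGATGCAA, and Asns and Trib3 differ from it at the free position. A match describes letters, not binding.

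Among 17875 genes with a measured probe, those whose profiles over the 12 arrays lay closest to each member were listed, where closeness is the root mean square difference of log2 signals after each gene's mean was removed. For Fgf21 the nearest 3 were Cdsn, a skin desmosome protein (0.66), H60, a ligand for a receptor of natural killer cells (0.91), and Acox2, a peroxisomal oxidase of bile acid synthesis (0.96). Fgf21 itself spread by 2.5 around its mean, so even the nearest followed it loosely. This list used the intron-spanning probe, and since the values of Fgf21 chose it, its neighbours follow from that choice. For Gdf15, which spread by 1.44, the nearest 3 were Trib3 (0.35), Atf3 (0.41) and Steap1, a transmembrane protein (0.46). For Nupr1, which spread by 0.49, the nearest were Timm10 and Hprt1 (0.19 and 0.20), and for Stc2, which spread by 0.48, Cdc42bpg and Snrpb (0.23 and 0.24). These distances are descriptions over arrays that also share slides and normalization.

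**Figure D4:**
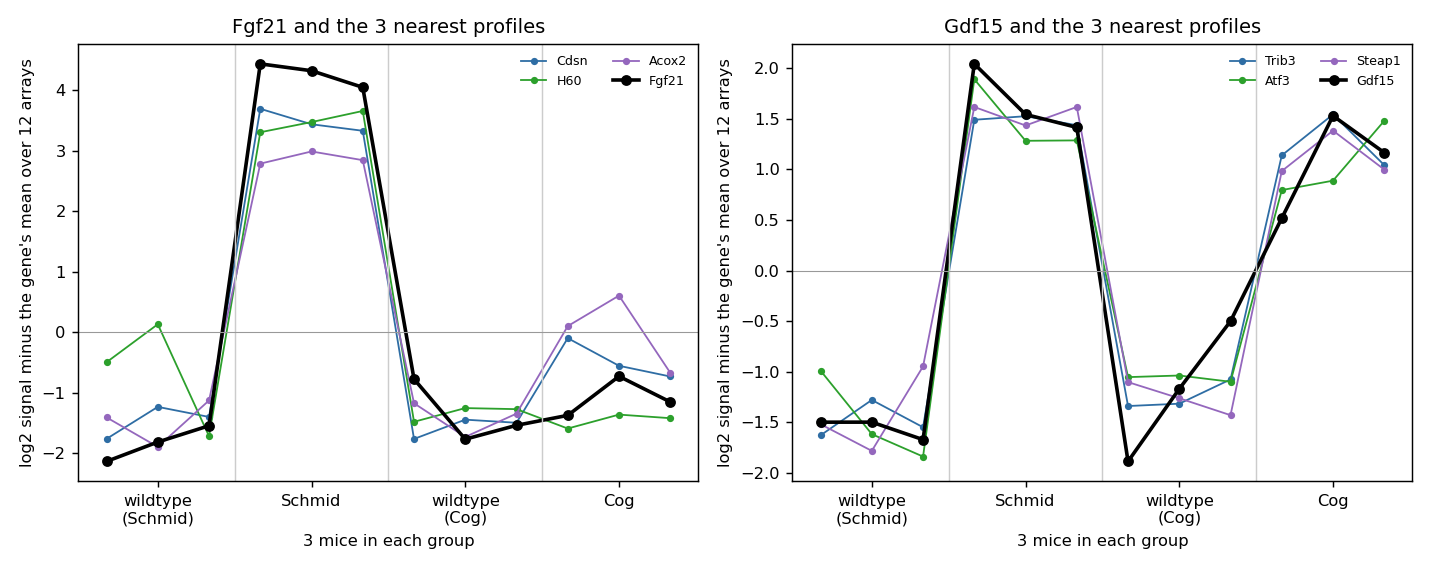
Log2 signal of Fgf21 (left) and Gdf15 (right), each in black with its 3 nearest genes, minus each gene's mean over the 12 arrays (vertical axis), for the 3 mice of each group. Fgf21 on its intron-spanning probe and its neighbours stood highest in Schmid, with Cdsn and Acox2 also above wildtype in every Cog mouse, while Gdf15, Trib3, Atf3 and Steap1 were high in both mutants.

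Several things moved with the groups beside these genes. Spots well above background made up 39.6 to 61.8% of an array, and negative control spots had medians of 202 to 617 in Schmid and of 977 to 1894 in the other 9 arrays. The Schmid arrays filled a slide of their own and no slide held a mutant with its own wildtype, and the effects of slide and genotype cannot be told apart. All 6 hypertrophic chondrocyte markers were well above background on every array, and 2 of them fell in Schmid and 1 in Cog. In Schmid, where 4.69% of all probes were called lower, 3 of the 5 red cell markers and 3 of the 5 endothelial markers fell. The log2 of their summed signals ran from 14.6 to 16.1 and from 12.3 to 12.9 there, against 17.9 to 19.9 and 14.2 to 14.9 in wildtype. For fat, which makes Fgf21 elsewhere, the log2 of the summed marker signals was 11.6 to 12.8 in Schmid and 13.4 to 13.7 in its wildtype. In each group 3 of the 5 fat markers were well above background on every array. Lep was at background in all 4 groups, and Adipoq in all but the wildtype of the Schmid background. For muscle markers the log2 of the summed signals was 12.9 to 15 in Schmid and 14.8 to 16.3 in its wildtype. The part of these cells in the values of the secreted factors was not tested.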

How the data were processed

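Total RNA from the hypertrophic zone of 12 mice (4 groups of 3) was amplified, labelled with Cy3 and hybridized by the authors, 1 array per mouse, and read with Agilent Feature Extraction 9.5.3, per the submitters' processing notes. The deposited scanner output gives the intensity and local background of each spot, not normalized between arrays, and a deposited series matrix gives log2 values of the same arrays. Spots marked as outliers (99.8% were kept) and control spots were left out. Spot intensities were background corrected by normexp with an offset of 50, quantile normalized between arrays, averaged per probe and fitted by group with limma 3.58.1 in R 4.3.3, with 8 residual degrees of freedom and Benjamini-Hochberg adjustment over 41174 probes. The other genes, motifs and marker lists, and the members themselves, were chosen with earlier results of these data known. For a listed gene with several probes, the brightest over the 12 arrays was used. Named genes are the members, all receptors, and listed genes called in either mutant or set beside them, and the nearest profiles, of which 3 for Fgf21 and Gdf15 are given and 1 is not reported here. The 33 probes lacking a value on some array were fitted on the arrays left. The number of arrays limits the precision. Over 12817 probes well above background on all arrays, deviations of same-numbered mice correlated by 0.307, 0.283 and 0.117 between Schmid and its wildtype, whereas those of Cog mice and their wildtype gave -0.208, 0.151 and -0.200. Same-numbered mice of the wildtype groups gave 0.504, 0.115 and 0.274. The labels give no source for these numbers, and the main fit paired no mice. A fit with the number as a block over all 4 groups was run as a further setting. Recovery of known changes was checked on simulated data first. For Schmid against wildtype, 33% of true log2 changes of 1 were recovered, 83.5% of those of 2 and 93% of those of 3. A change of about 2-fold that was not called is therefore not shown to be absent. Alternatives changed the signal, the scaling, the filters, the fit and the arrays included.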

Additional observations from a re-analysis of the deposited data

Results flagged for a closer look

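Of the genes listed around the members and called in either mutant, 5 changed differently in Schmid and in Cog by limma's test of that difference. Each had passed the test in Schmid alone. The Schmid change enters both tests, so taking genes already called favours a called difference. Over all probes 10.3% were called for it. Klb, called in neither mutant, was also called for that difference, on spots partly at background. On the log2 scale the Schmid change minus the Cog change was -1.42 for Fgf23 (adjusted p of 0.00106), -1.36 for Fgfr1 (adjusted p of 0.00771) and -2.36 for Fgfr4 (adjusted p of 0.000776). It was 1.84 for Cebpg (adjusted p of 0.0321) and 2.46 for Ero1l (adjusted p of 0.00172). The difference of Fgfr4, and that of Ero1l, was called under all 22 alternatives in which it could be fitted, that of Fgf23 and that of Fgfr1 under 21 of 22, and that of Cebpg under 13 of 22. For Fgfr1 and Cebpg the other probes of the gene did not show it. The Schmid signals of Fgf23 and Fgfr1 were dim, below the median of all probes. Groups of 3 mice are too small for a search for single outlying samples.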

How the results depend on the processing

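No slide held a mutant with its own wildtype, so no alternative could separate slide from genotype. Signal over background limits Klb and the 3′ probe of Fgf21 in wildtype to bounds, and it leaves Stc1 with neither a fold nor a bound. Gdf15 kept its direction under all 23 alternatives and its call in Schmid under all of them (adjusted p from 1.65e-05 to 0.00209). The number of members called besides Fgf21 moved in 3 alternatives. It was 1 in place of 2 in Schmid when the processed signal was set to its 75th percentile, where Nupr1 had 0.79 (adjusted p of 0.146). It was 0 in place of 1 in Cog with the fit on the compared groups only, where Gdf15 had an adjusted p of 0.0627. It was 1 in place of 0 for the difference between the mutants with the processed signal quantile normalized, through an Stc1 probe at background (-1.46). Leaving out each mouse in turn kept these counts at 2 in Schmid, 1 in Cog, 0 for the difference and 0 between the wildtypes. With the replicate number as a block the counts were 2, 1, 0 and 0, and the block changed no call of a member. The difference between the mutants in Nupr1 had an adjusted p from 0.0112 to 0.358 and was never called. Scaling to the 75th percentile moved the median of all probes by -0.35 in Schmid with normexp, and by -0.40 in Schmid and 0.43 in Cog with the processed signal. Small changes turned their sign: Stc2 in Schmid to -0.10 (processed, quantile) and -0.093 (processed, 75th percentile), in Cog to -0.0049 (processed, 75th percentile) and between the mutants to 0.13 (normexp, 75th percentile), and Nupr1 between the wildtypes to 0.0056 and 0.069 (normexp and processed, 75th percentile). With the processed signal, which spreads dim values, Fgf21 stood 7.14 and 7.04 above wildtype in Schmid on the intron-spanning probe and 11.8 and 11.9 on the 3′ probe, where Cog stood 4.30 and 4.24 above (quantile and 75th percentile). The gap between the mutants on the intron-spanning probe was 6.48 with the processed signal quantile normalized and 5.29 with array weights. The fit on the compared groups only could not be made for the difference. Ddit3, Trib3 and Atf3 were called in both mutants under all 23 alternatives, and in Schmid Asns and Eif2ak3 under 18 each. The causes of these changes were not tested.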
